A study of Mus musculus with 6 samples.

Results

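The genes followed here belong to necroptosis and death receptor signalling in mouse liver after a lentiviral vector: Zbp1, Mlkl, Ripk1, Casp8, Fas and Tnfrsf1a. All 6 were found by symbol among the 8390 genes of the deposited table, and all 6 passed the filter on low values. They were chosen with earlier results of these data known, so the number of them that changed is not independent evidence. The LV group comprised 3 liver libraries from C57BL/6 mice that received 3e8 transducing units of a lentiviral vector (LV, a replication-deficient particle made from a retrovirus) into a vein, with the liver taken 4 h later. The other 3 libraries came from livers of untreated C57BL/6 mice. The labels give no age. Without a mock-injected group the vector and the injection cannot be told apart. The labels do not state that libraries of a group came from separate mice; if they did not, the p-values reflect technical spread only.

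Death receptors such as Fas and Tnfrsf1a (the receptor of tumour necrosis factor) sit on the cell surface and, once bound by their ligands, assemble complexes that hold the kinase Ripk1 and the protease Casp8. Active Casp8 starts apoptosis and cuts Ripk1. When Casp8 is held back, Ripk1 or the nucleic acid sensor Zbp1 can engage the kinase Ripk3, which phosphorylates Mlkl; Mlkl then breaks the plasma membrane, a lytic death called necroptosis. Hepatocytes are known to die readily when Fas is engaged and to hold little Ripk3. Zbp1 and Mlkl are known interferon-inducible genes in mice.

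Values are the whole numbers that the authors deposited, with no named unit; they appear to be scaled for library size, and perhaps for transcript length, which the values do not settle. Column sums ran from 497295 to 526009 and are not read totals, which leaves the read depth, and with it any counting interval, unknown. Hepatocyte markers were high, as in liver, with albumin (Alb) at 54529, 54467 and 41700 in LV livers and 66000, 49014 and 69728 in untreated livers. LV replicate 3 and untreated replicate 2 stood apart from the other libraries in male-biased liver genes. Elovl3, a fatty acid elongase, had 0, 1 and 169 in LV replicates 1, 2 and 3. For untreated replicates 1, 2 and 3 it was 4, 159 and 2. Cyp4a12a reached 186 in LV replicate 3 and 136 in untreated replicate 2, against 0 to 3 elsewhere. Cyp2b9 ran the opposite way, at 8 and 5 in that order, against 121 to 157 elsewhere. Deviations from the group means correlated at 0.612 between LV replicate 3 and untreated replicate 2. The split thus runs across both groups, and no fit included it as a term. For the genes named here, a call lost without these 2 libraries is given with its adjusted p.

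Upstream stretches are shown for 3 of the 6 members, Mlkl, Casp8 and Fas. All 6 had higher values in every LV library, so that does not set these 3 apart. Whether they are regulated together was not tested. RefSeq promoters of assembly GRCm38.p6 were matched for 5 of the 6 members, in 6 entries; Zbp1 had no match. The 250 bases before each annotated start were searched on both strands for 4 motifs, chosen with the sequences in view: the interferon-stimulated response element (ISRE, 2 copies of GAAA with 2 bases between them), the shorter interferon regulatory factor (IRF) element AANNGAAA, which every ISRE contains, the gamma-activated site (GAS, TTCNNNGAA) of STAT factors, and the NF-kB consensus. Capitals mark IRF element and GAS matches.
Mlkl, GRCm38.p6 chr8:111338206-111338455, minus strand: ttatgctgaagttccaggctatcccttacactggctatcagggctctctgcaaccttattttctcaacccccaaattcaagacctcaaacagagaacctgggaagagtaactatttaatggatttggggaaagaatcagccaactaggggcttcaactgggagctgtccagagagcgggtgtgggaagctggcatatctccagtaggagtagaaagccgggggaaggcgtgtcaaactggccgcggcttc
Casp8, GRCm38.p6 chr1:58802252-58802501, plus strand: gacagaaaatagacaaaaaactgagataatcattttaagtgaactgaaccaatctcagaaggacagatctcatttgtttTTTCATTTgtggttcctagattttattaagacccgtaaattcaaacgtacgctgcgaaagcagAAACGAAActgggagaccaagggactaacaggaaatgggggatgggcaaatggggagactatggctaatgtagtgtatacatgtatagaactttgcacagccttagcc
Fas, GRCm38.p6 chr19:34290409-34290658, plus strand: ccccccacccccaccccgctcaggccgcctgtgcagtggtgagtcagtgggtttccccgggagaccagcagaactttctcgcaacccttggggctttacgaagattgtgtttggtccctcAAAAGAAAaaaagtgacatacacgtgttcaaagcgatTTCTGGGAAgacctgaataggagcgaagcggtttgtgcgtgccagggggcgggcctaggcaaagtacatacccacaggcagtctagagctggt

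The Mlkl stretch held none of the 4 motifs. Casp8 held 2 IRF element matches, one of them AAACGAAA at bases 108 to 101 before the start. Fas held an IRF element match, AAAAGAAA at bases 130 to 123, and a GAS match, TTCTGGGAA at bases 93 to 85. Tnfrsf1a had a GAS match, TTCCGTGAA at bases 244 to 236, and the second of 2 Ripk1 entries had 2, both TTCCCGGAA. The full ISRE and the NF-kB consensus were in none of the 6 stretches. Of 32851 RefSeq promoter stretches of this length, 21.3% held the IRF element, 7.02% the GAS, 2.98% the ISRE and 7.25% the NF-kB consensus. A match is a description of letters and not a shown binding site.

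The comparison asks which of these death genes differed in liver 4 h after the vector. Zbp1 and Mlkl, the sensor and the executioner of necroptosis, were higher in LV livers, and the receptors, Casp8 and Ripk1 did not pass the threshold although their values lay above the untreated ones in every LV library. In limma, with log2(value + 1) fitted over 8386 genes and Benjamini-Hochberg adjustment over all of them, 2 of 6 members were higher at an adjusted p under 0.05 and 0 were lower, against 4.63% called in either direction over all genes tested (3.76% higher and 0.87% lower). The LV and untreated values did not overlap for any of the 6 members, all with LV on top, whereas 8.65% of all tested genes had every LV value above every untreated value. The median log2 fold change was 0.92 over the members and -0.07 over all tested genes.

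**Figure D1:**
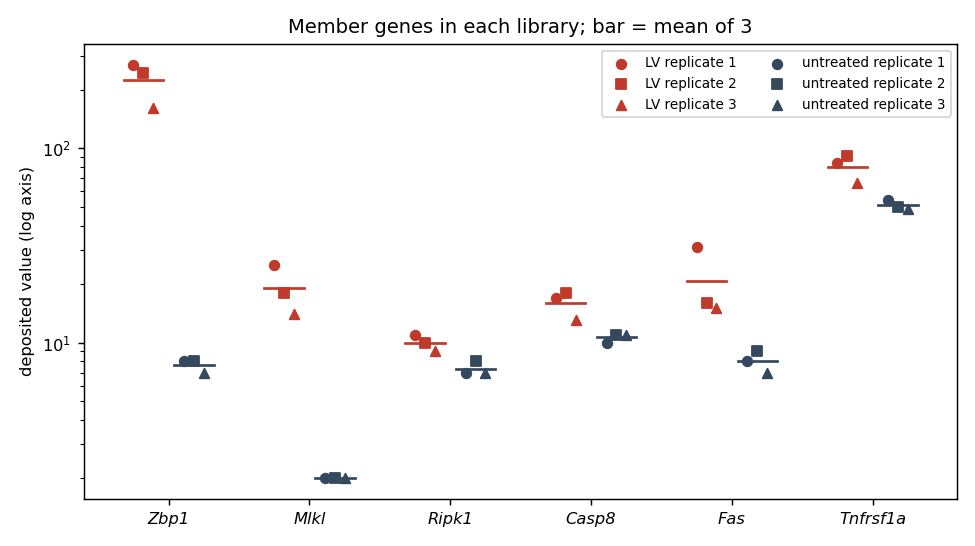
Deposited value (log axis) of each member in each library, with LV libraries in red on the left of each pair, untreated libraries in dark blue on the right, a marker shape per replicate number and a bar at the mean of 3. Zbp1 spans 161 to 270 in LV and 7 to 8 in untreated livers, and LV replicate 3 has the lowest LV value of all 6 genes.

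Zbp1, which binds Z-form nucleic acid and passes the signal to Ripk3, had 270, 244 and 161 in LV livers and 8, 8 and 7 in untreated livers. The groups lie far apart, and the lowest LV library was replicate 3. The mean was 225 ± 56.9 in LV and 7.67 ± 0.577 in untreated livers (SD, n = 3 each), a ratio of 29.3. The log2 fold change was 4.67 ± 0.21 SE (limma adjusted p = 0.00134), with 20 of the 8386 tested genes above it. Zbp1 passed the threshold with each library left out in turn, with limma adjusted p of at most 0.0194.

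Mlkl, the pseudokinase that permeabilises the membrane, had 25, 18 and 14 in LV livers and 2 in each untreated liver. The untreated values are so low that rounding matters. The ratio of means was 9.5, and rounding alone allows 7.4 to 13. The mean was 19 ± 5.57 in LV livers (SD, n = 3), and the untreated livers had no measured spread. The log2 fold change was 2.70 ± 0.21 SE (limma adjusted p = 0.00264), with 71 tested genes above it. Mlkl passed with each library left out as well, with limma adjusted p of at most 0.0283. Ripk3, the kinase that joins Zbp1 to Mlkl, was not found among the genes of the deposited table and is not analysed here.

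Fas, the receptor of Fas ligand, had 31, 16 and 15 in LV livers and 8, 9 and 7 in untreated livers. All LV values are above all untreated ones, and LV replicate 1 stood well above the other LV libraries. The mean was 20.7 ± 8.96 in LV and 8 ± 1 in untreated livers (SD, n = 3 each). On the log2 scale the difference was 1.20 with a 95% interval of 0.47 to 1.93 (adjusted p = 0.0975 in limma). Without LV replicate 1 the log2 fold change was 0.88. Dividing by median-of-ratios size factors gave 1.25 and put Fas past the threshold (limma adjusted p = 0.0404).

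Tnfrsf1a, the other death receptor among the members, had 84, 91 and 66 in LV livers and 54, 50 and 49 in untreated livers. The lowest LV library, replicate 3, was still above the highest untreated one. Its mean was 80.3 ± 12.9 in LV and 51 ± 2.65 in untreated livers (SD, n = 3 each), a ratio of 1.57. The log2 fold change was 0.63 (95% interval 0.29 to 0.98; limma adjusted p = 0.0734). Without LV replicate 3 it was 0.77, and the call passed (limma adjusted p = 0.0224).

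Casp8, the initiator protease of death receptor complexes, had 17, 18 and 13 in LV livers and 10, 11 and 11 in untreated livers. The nearest values of the groups, 13 and 11, are 2 rounded units apart. The mean was 16 ± 2.65 in LV and 10.7 ± 0.577 in untreated livers (SD, n = 3 each). The log2 fold change was 0.53 (95% interval 0.18 to 0.88; limma adjusted p = 0.113). As with Tnfrsf1a, leaving out LV replicate 3 put it past the threshold (0.67, limma adjusted p = 0.0334). With untreated replicate 2 left out as well (0.69 for Casp8), neither Casp8 nor Tnfrsf1a passed and the members called were again 2.

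Ripk1, the kinase at the branch between survival, apoptosis and necroptosis, had 11, 10 and 9 in LV livers and 7, 8 and 7 in untreated livers. The groups are separated by 1 rounded unit. The mean was 10 ± 1 in LV and 7.33 ± 0.577 in untreated livers (SD, n = 3 each). Its log2 fold change of 0.40 was the smallest of the 6 (95% interval 0.13 to 0.66; limma adjusted p = 0.118), and it passed under none of the 13 alternatives. In GENCODE M21, exons of Ripk1 overlap those of Serpinb6a on the opposite strand and of a pseudogene, Gm17084, on the same strand. No source used here says whether reads were counted by strand, so the split is uncertain. Serpinb6a itself had 10, 10 and 7 in LV livers and 8, 8 and 9 in untreated livers.

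For each of the 6 members, an exact two-sided permutation test of 3 against 3 log2 values gave p = 0.1, the smallest this design allows. LV replicate 3 had the lowest LV value for all 6 members and LV replicate 1 the highest for 4 of them. Relative to the untreated mean, Mlkl stood 3.12, 2.66 and 2.32 higher on the log2 scale in LV replicates 1, 2 and 3, and Casp8 stood 0.63, 0.70 and 0.26 higher. Over the genes called higher, members left out, the medians were 1.78, 1.65 and 1.42, so LV replicate 3 was also lowest there. Whether the features that set LV replicate 3 apart have a part in this was not tested.

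The order of the members by level differed between the groups, on the deposited scale and as far as its values are per length. In LV livers it ran Zbp1, Tnfrsf1a, Fas, Mlkl, Casp8 and Ripk1. The values of Fas (15 to 31), Mlkl (14 to 25) and Casp8 (13 to 18) overlap, so their order is not beyond the spread. In untreated livers Tnfrsf1a stood highest, Casp8 followed at 10 to 11, Fas (7 to 9), Zbp1 (7 to 8) and Ripk1 (7 to 8) overlapped, and Mlkl was lowest at 2.

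Scaling of a whole library largely cancels in ratios within it. The denominator, Ripk1, had the smallest log2 fold change of the members. Each difference of mean ratio is the member's log2 fold change less that of Ripk1, so its positive sign follows from that choice. Relative to Ripk1 in the same library, Zbp1 averaged 4.33 ± 0.27 in LV and 0.06 ± 0.10 in untreated livers on the log2 scale (SD, n = 3 each). Mlkl averaged 0.83 ± 0.27 in LV and -1.47 ± 0.10 in untreated livers, so its deposited value lay above that of Ripk1 in every LV library and below it in every untreated one. Fas relative to Ripk1 averaged 0.91 ± 0.44 in LV and 0.11 ± 0.09 in untreated livers. These 3 ratios did not overlap between the groups (exact permutation p = 0.1, the smallest possible; 0.167 after adjustment over the 5 ratios). Casp8 relative to Ripk1 averaged 0.62 ± 0.15 in LV and 0.49 ± 0.09 in untreated livers, and Tnfrsf1a relative to Ripk1 averaged 2.88 ± 0.17 in LV and 2.64 ± 0.14 in untreated livers. Both of these overlapped (exact permutation p = 0.3 and 0.2, adjusted 0.3 and 0.25). No ratio can pass the threshold with 3 libraries a group.

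**Figure D2:**
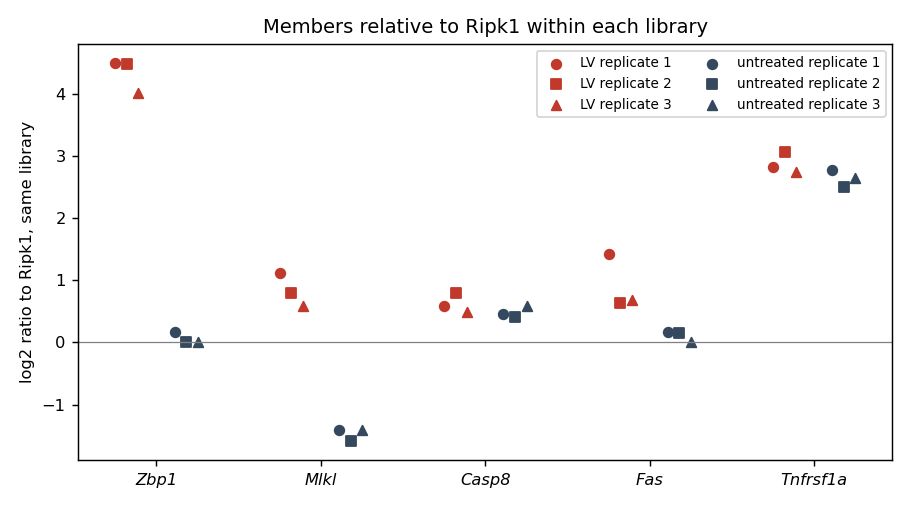
Log2 ratio of each of 5 members to Ripk1 within the same library, on log2(value + 1), with LV libraries in red on the left of each pair and untreated libraries in dark blue on the right. The LV and untreated points are apart for Zbp1, Mlkl and Fas and overlap for Casp8 and Tnfrsf1a.

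The genes with the most similar profile were sought for each member by the root mean square distance between mean-centred log2(value + 1) profiles over the 6 libraries, among 6780 other genes with a mean of at least 5. The nearest to Zbp1 were the chemokine Ccl2 (distance 0.144), Ifi47 (0.214) and Igtp (0.236), of which the last 2 are interferon-inducible GTPases. Ccl2 was listed at 0 in every untreated library, so it passed that minimum through the LV libraries alone and its distance depends on the pseudocount of 1. The nearest to Mlkl were Daxx (0.0655), a Fas-binding and histone chaperone protein, Trim34 (0.0964) and Tap1 (0.124), the class I peptide transporter. Mlkl itself had 2 in each untreated library, so its distances depend on the pseudocount as well. Those nearest to Fas were Dusp28 (0.110), the haem-binding plasma protein Hpx (0.120) and Nub1 (0.121). Hpx had 7480, 5177 and 4360 in LV livers and 2385, 2455 and 2095 in untreated livers, with the same high LV replicate 1 as Fas. The nearest to Tnfrsf1a were the class I heavy chain H2-D1 (0.0463), Ifitm1 (0.0491) and Zc3h13 (0.0594). Casp8 was nearest to Ficd (0.0479), Dom3z (0.0563) and Tmem106a (0.0642). Ripk1 was nearest to Ube2d3 (0.0390), a ubiquitin-conjugating enzyme, Ptk2 (0.0468) and a gene listed only as ENSMUSG00000074747 (0.0527). Trim34 (2 in each untreated library), Ficd (4 in each) and Dusp28 (5, 5 and 4) also reached the minimum mean only through the LV libraries. Small distances are common for genes that vary little, such as Ripk1. A gene is near mainly when its log2 fold change is similar: Zbp1 had 4.67, against 4.48, 4.54 and 4.29 for Ccl2, Ifi47 and Igtp. Nearness thus largely restates the group difference and shows no separate link between genes.

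The wider cell death pathway was read from 147 genes listed by role, of which 100 were in the table, 4 of them by an older symbol. Of these 100, 17 were higher, 1 was lower and 82 did not pass in limma, against 3.76% higher and 0.87% lower over all genes. Their median log2 fold change was 0.04, against -0.07 over all tested genes. The lists were chosen with earlier results of these data known, so the number called is not independent evidence. The calls fell to between 6 and 11 when any library other than LV replicate 3 was left out. Of the 18 called genes, 5 passed in all 13 alternatives: Tnfsf10, Daxx, Tlr3, Adar and Eif2ak2.

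**Figure D3:**
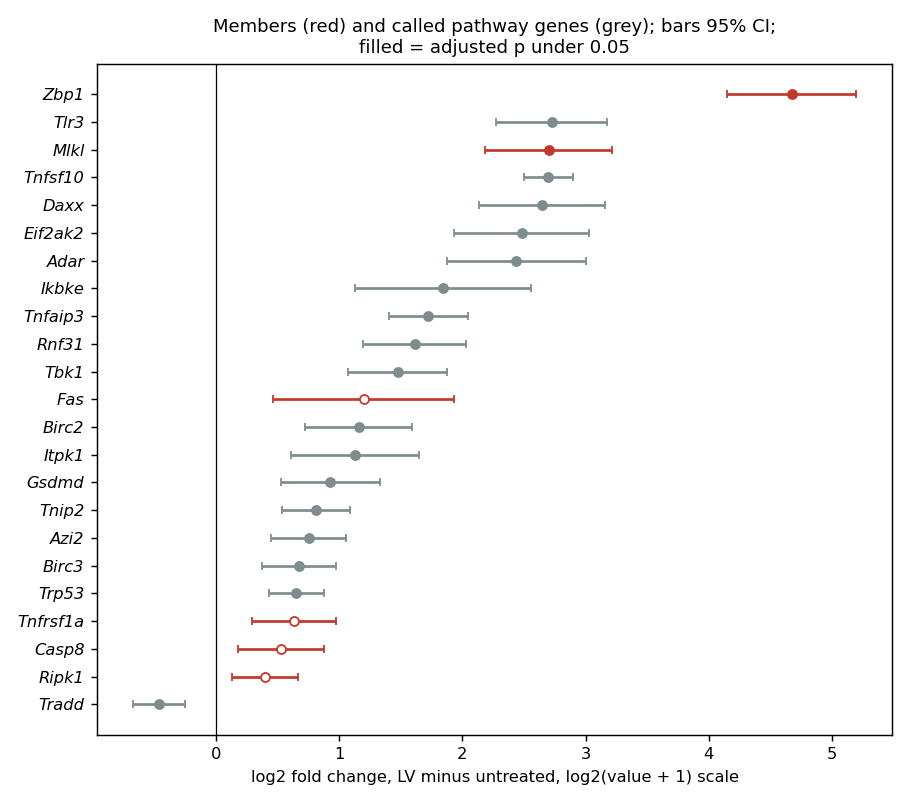
Log2 fold change (LV minus untreated, log2(value + 1) scale) of the 6 members in red and 17 of the 18 called pathway genes in grey, with 95% intervals from limma; filled points have an adjusted p under 0.05. Zbp1 lies at 4.67, Mlkl at 2.70 among Tlr3, Tnfsf10 and Daxx, and Tradd is on the negative side at -0.46.

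Among death ligands and receptors, 5 of 19 listed genes were in the table, and 1 was higher, against 3.76% over all tested genes. Tnfsf10, the death ligand TRAIL, had 13, 12 and 11 in LV livers and 1 in each untreated liver. The groups lie far apart and the LV libraries are close together (log2 fold change 2.70 ± 0.08 SE, limma adjusted p = 0.00047). The untreated values are so low that rounding matters. With a pseudocount of 0.1 the log2 fold change was 3.46, so the SE understates the uncertainty in its size. Tnfrsf1b, the second receptor of tumour necrosis factor, had 13, 14 and 10 in LV livers and 7, 10 and 10 in untreated livers, and the groups overlap (adjusted p = 0.293 in limma). Fasl and Tnf, the ligands of Fas and Tnfrsf1a, were not found in the table and are not analysed here.

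Of 34 measured adaptors and ubiquitin enzymes of receptor complexes, 9 were higher and 1 lower, against 3.76% and 0.87% over all tested genes. Tradd, which links Tnfrsf1a to Ripk1, was the lower gene, with 9, 10 and 10 in LV livers and 13, 14 and 14 in untreated livers (log2 fold change -0.46 ± 0.08 SE, limma adjusted p = 0.0455). That call was lost with any library left out (adjusted p between 0.0689 and 0.144) and with all 3 rescalings of the libraries. Fadd, the adaptor that recruits Casp8, had 4, 5 and 5 in LV livers and 5 in each untreated liver. Several of the higher genes are known to restrain Ripk1-driven death. Tnfaip3 (A20), a ubiquitin-editing enzyme, had 7, 5 and 5 in LV livers and 1 in each untreated liver (1.72 ± 0.13 SE, limma adjusted p = 0.0023). Rounding matters at such low values, and a pseudocount of 0.1 gave 2.37. Rnf31, the catalytic subunit of the linear ubiquitin ligase, had 31, 24 and 22 in LV livers and 7, 9 and 7 in untreated livers (limma adjusted p = 0.00764). Its partners Rbck1 and Sharpin had log2 fold changes of 0.17 and -0.10 and did not pass. Birc2 and Birc3, which attach ubiquitin to Ripk1, had log2 fold changes of 1.16 and 0.67 (limma adjusted p = 0.0262 and 0.0439). Tbk1 and Ikbke, kinases that phosphorylate Ripk1, had 1.48 and 1.84 (limma adjusted p = 0.0089 and 0.0291).

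The same list held Daxx, with 67, 51 and 39 in LV livers and 7, 8 and 7 in untreated livers. Its log2 fold change was 2.65 ± 0.21 SE (limma adjusted p = 0.00276), close to that of Mlkl with a pseudocount of 1. With a pseudocount of 0.1 the log2 fold change was 2.79 for Daxx and 3.15 for Mlkl. Tnip2, a partner of A20, and Azi2, an adaptor of Tbk1, completed the higher genes with 0.81 and 0.75 (limma adjusted p = 0.0189 and 0.0338). With single libraries left out, the calls of Birc2 and Azi2 held only without untreated replicate 2, that of Ikbke only without LV replicate 3, and that of Birc3 in no case (adjusted p up to 0.118, 0.142, 0.13 and 0.173 in limma). Tnip2 lost its call without LV replicate 2 or any untreated library, Tbk1 without LV replicate 2 or untreated replicate 1 or 3, and Rnf31 without LV replicate 2 or untreated replicate 1 (limma adjusted p up to 0.0943, 0.0593 and 0.0529). Tnfaip3 kept its call in all 6. Without both LV replicate 3 and untreated replicate 2, the limma adjusted p was 0.0545 for Tnfaip3, 0.0681 for Tnip2, 0.14 for Birc3, 0.142 for Ikbke and 0.123 for Tradd, and none of these calls held. Traf5 followed the libraries that stand apart, with 33, 38 and 237 in LV livers and 41, 155 and 44 in untreated livers.

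Of 22 measured partners of necroptosis, 4 were higher and 18 did not pass, against 3.76% higher over all tested genes. Tlr3, a sensor of double-stranded RNA that can start necroptosis through its adaptor Ticam1, had 17, 16 and 16 in LV livers and 2, 2 and 1 in untreated livers (2.73 ± 0.18 SE, limma adjusted p = 0.00178). Its untreated values are low as well, and a pseudocount of 0.1 gave 3.28. Ticam1 itself had 8, 8 and 10 in LV livers and 8, 10 and 8 in untreated livers. Adar, the editing enzyme that keeps endogenous RNA from activating Zbp1 in mice, had 48, 51 and 41 in LV livers and 7, 11 and 6 in untreated livers (2.44 ± 0.22 SE, limma adjusted p = 0.00486). Eif2ak2 (PKR), an RNA-activated kinase, had 24, 21 and 18 in LV livers and 3, 4 and 2 in untreated livers (2.48 ± 0.22 SE, limma adjusted p = 0.00407). Itpk1, whose inositol phosphate products bind MLKL in human cells, reached 1.13 on the log2 scale (limma adjusted p = 0.0485), a call lost with any library left out (up to 0.183) and without both libraries that stand apart (0.164). Cflar, the brake on Casp8, had 44, 39 and 40 in LV livers and 27, 33 and 23 in untreated livers and did not pass (0.56, limma adjusted p = 0.111).

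Of 15 measured Bcl-2 family genes, 0 passed in limma and 5 had an unadjusted p under 0.05, as did 19.5% of all genes. The nearest were Mcl1, a survival factor, with 56, 50 and 51 in LV livers and 39, 41 and 37 in untreated livers (adjusted p = 0.0585), and Bik, a killer of the same family, with 6, 7 and 9 in LV livers and 16, 16 and 12 in untreated livers (adjusted p = 0.0587). Of 11 genes of mitochondrial apoptosis, 1 was higher, Trp53 (0.65 ± 0.09 SE, limma adjusted p = 0.0191). Of 4 measured genes of pyroptosis, 1 was higher, the pore protein Gsdmd, with 30, 31 and 30 in LV livers and 18, 17 and 12 in untreated livers (limma adjusted p = 0.0391). Over all tested genes 3.76% were higher, so 1 call in a list this short says little about the list. With single libraries left out, Trp53 passed only without LV replicate 3 or untreated replicate 1 and Gsdmd only without untreated replicate 3 (limma adjusted p up to 0.101 and 0.163). Neither passed without both libraries that stand apart (limma adjusted p = 0.0984 and 0.18).

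**Figure D4:**
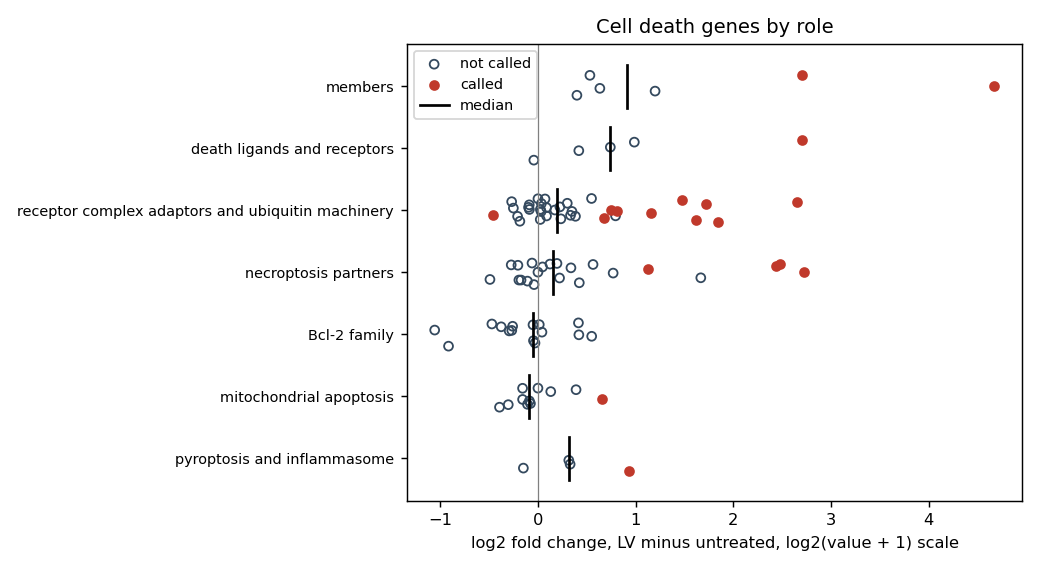
Log2 fold change (LV minus untreated, log2(value + 1) scale) of every measured gene of 6 role lists and of the members, with a row per list, called genes in filled red, other genes as open circles and a black line at the list's median. The medians lie at 0.92 for the members, 0.74 for 5 ligands and receptors, and -0.05 and -0.09 for the Bcl-2 family and mitochondrial apoptosis.

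Markers of other cells were measured beside these genes, since in whole liver fewer cells of a type and less RNA per cell cannot be told apart. Of 11 T and NK cell markers and 6 B cell markers, 0 were in the table. Of 11 monocyte and neutrophil markers 1 was, Lyz2, with 86, 101 and 66 in LV livers and 64, 50 and 51 in untreated livers (adjusted p = 0.174 in limma). The summed level of 11 of 12 Kupffer cell markers ran from 138 to 324 in LV and from 257 to 383 in untreated livers, and that of 10 of 10 sinusoidal endothelial markers from 133 to 200 in LV and from 198 to 224 in untreated livers. Among Kupffer markers, Clec4f had 19, 49 and 35 in LV livers and 77, 53 and 53 in untreated livers. Vsig4 had 5, 10 and 7 in LV livers and 17, 15 and 18 in untreated livers. Only Marco and Cd68 of that list had a log2 fold change above 0 (0.0046 and 0.068). Among endothelial markers, Lyve1, Egfl7, Cdh5 and Pecam1 had a log2 fold change above 0 (1.015, 0.21, 0.15 and 0.09) and the others below. Clec4g, of the same list, had 11, 43 and 33 in LV livers and 55, 54 and 58 in untreated livers. LV replicate 1 had the lowest sum of Kupffer cell markers, 138, and of endothelial markers, 133. None of the measured Kupffer, endothelial or Lyz2 markers passed, and all were above 0 in every library. The part of these cells in the changes of Zbp1 and Mlkl was not tested.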

How the data were processed

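The 6 libraries were made from liver total RNA with TruSeq RNA reagents, as the labels' protocols say. Per the submitters' processing notes the build was mm9; no source used here names the aligner, annotation or counting method. The authors deposited 1 table of whole numbers with no stated unit, treated here as a score. Read counts vary by at least their mean, yet at a mean of 2 to 5 the ratio of variance to mean within a group averaged 0.246 (LV) and 0.238 (untreated). The first percentile of value times length in kb was 7.8 for the shortest 10% of genes and 9.2 for the longest 10% when the longest transcript was used, but 1.18 and 6.22 with the median transcript. Scaling for length is thus a reading of the values and is not settled.

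A gene was tested if 3 or more libraries had a value of 1 or above, which kept 8386 of 8390. limma 3.58.1 (R 4.3.3) compared the groups on log2(value + 1) with a trended prior variance. Tests are two-sided, adjusted by Benjamini-Hochberg across the table. On simulated data the share of false calls from this fit was above the nominal rate. Adjusted p-values may therefore be too small, which matters most just under the threshold, as for Itpk1, Tradd, Birc3 and Gsdmd. The counts of called genes may be too high for the same reason. Members and lists were chosen with earlier results of these data known. Named were all members, every called pathway gene and the 3 nearest profiles per member; others named (such as Fadd, Cflar and Traf5) were chosen after their values were seen. Some genes and 1 list of the pathway are not reported here one by one. Sample titles gave the group and replicate number. Every value column matched 1 sample, and 0 columns were left over. Alternatives were each library left out, the replicate number as a block, a pseudocount of 0.1, omitting the low-value filter, quantile normalization, equal column sums and median-of-ratios size factors. A fit without both libraries that stand apart was added after seeing the data.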

Additional observations from a re-analysis of the deposited data

How the results depend on the processing

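The calls of Zbp1 and Mlkl held in all 13 alternatives, with log2 fold changes of 4.53 to 4.92 and 2.49 to 3.15. Ripk1 passed in none of them. The number of members called was 2 to 4 with single libraries left out; Casp8 ranged from 0.45 to 0.67 and Tnfrsf1a from 0.54 to 0.77 on the log2 scale over these fits, and both passed only without LV replicate 3. Without both libraries that stand apart Casp8 was at 0.69 and did not pass. Fas passed only with median-of-ratios size factors (1.25). The pathway calls ranged from 6 to 16 with single libraries left out and were 11 without LV replicate 3 and untreated replicate 2 together. Over all genes, 130 to 433 were called with single libraries left out, 120 to 317 of them higher and 10 to 116 lower, against 388, 315 and 73 with all libraries; without the pair of libraries that stand apart, 452 were called and 138 were lower. The cause of these shifts was not tested. Replicate numbers did not pair the samples: same-numbered LV and untreated libraries had correlations of deviations from the group means of 0.276, -0.47 and -0.336, and not every sample correlated best with its own number. With the replicate block, 156 genes were called, 145 higher and 11 lower, 9 pathway genes and 2 members. The within-library ratios kept their sign in all 7 alternatives each. Because their denominator, Ripk1, had the smallest log2 fold change of the members, that sign restates the fold changes and adds no support. The unknown depth and the rounding limit genes with single-digit values most.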
